A study of Homo sapiens with 16 samples.

Results

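The genes described here are the 10 that encode the core of the cell cycle engine downstream of CDK4 and CDK6: the kinases CDK1 and CDK2, the cyclins A2, B1, B2, E1 and E2 (CCNA2, CCNB1, CCNB2, CCNE1 and CCNE2) and the activating phosphatases CDC25A, CDC25B and CDC25C. They were chosen by function, with earlier results of these data known, and were found by symbol among the 58676 gene identifiers of the deposited count files. Shares of all genes given beside them below set a scale and do not test the set. All 10 were counted in all 16 libraries, with between 15 and 10983 reads, and all 10 passed the filter on low counts in both cell lines.

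RNA was sequenced from A549, an established human lung cancer cell line, and SUM159, an established human triple-negative breast cancer cell line, which lacks the hormone receptors. The 8 groups were untreated cells, cells given 2 µM palbociclib, cells given 3 µM indisulam and cells given both, in each line, with 2 libraries per group, and the labels give 16 h for the drug-treated groups. Palbociclib inhibits CDK4 and CDK6, and indisulam directs the splicing factor RBM39 to degradation through the DCAF15 ubiquitin ligase. The study's figure legend calls the duplicates technical. Every SE and p-value below thus measures the spread between these libraries and not that between independent cultures.

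Cyclins bind and switch on the cyclin-dependent kinases, and their synthesis and destruction time the phases of the cycle. Cyclin E with CDK2 drives entry into S phase, cyclin A2 with CDK2 and then CDK1 carries cells through S phase and G2, and the B cyclins with CDK1 start mitosis. WEE1 and PKMYT1 hold the kinases back by phosphorylating them, and the CDC25 phosphatases remove those phosphates. Transcription of the E cyclins and CDC25A follows the E2F factors that RB restrains, while CDK1, the B cyclins and CDC25C follow the later programme of the DREAM and MYBL2-FOXM1 complexes, which act through CCAAT boxes and the element called CHR (cell cycle genes homology region).

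Gene counts per library ran from 18306636 to 34075588, so that 3 counts, the smallest level read here, corresponded to between 0.0880 and 0.164 CPM, the gene's counts scaled to a common library size. The 2 libraries of a group were further apart than counting error alone gives, by 1.65 to 10.05 times as measured by chi-square over its degrees of freedom, and furthest in untreated SUM159. Of the 7 epithelial A549 markers, 6 were lower in untreated SUM159, with CDH1 at 79.01 and 80.7 CPM in untreated A549 and 0.145 and 0.335 CPM in untreated SUM159, while KRT7 was higher in SUM159. Of the 4 mesenchymal SUM159 markers, VIM, CDH2 and ZEB1 were higher in SUM159 and S100A4 was lower. ESR1 was at most 0.796 CPM in any library and PGR at most 0.0401 CPM, while ERBB2 was counted at 98.4 and 101 CPM in untreated SUM159. Of the markers of other cell types, COL1A1 stood at 780.4 and 782 CPM, PECAM1 at 19.5 and 17.4 CPM and PTPRC at 4.003 and 4.17 CPM in untreated SUM159, and these 3 were between 0 and 3.44 CPM in untreated A549. Their part in the results was not tested. CPM was scaled within each line, so values of the lines set side by side show only the order of magnitude, and differences between lines are taken from the fit of all libraries.

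The stretches of DNA before the start sites were searched because several of the 10 genes moved together. RefSeq windows on GRCh38.p14, from 150 bases before to 20 after an annotated start, were found for 8 of the 10 genes, 15 windows in all; CDK2 and CCNE2 had none in the table used. The letters searched, on both strands, were TTTGAA or TTCGAA for the CHR, CCAAT for the CCAAT box, and TTTCGCGC, TTTGGCGC or TTTCCCGC for E2F. CHR letters occurred in 4 of the 15 windows (4 genes), CCAAT in 9 (7 genes) and E2F letters in 2 (2 genes). Among all 35116 windows of the same length, 8.89% held CHR letters, 24.8% CCAAT, 1.7% E2F letters and 2.56% both CHR letters and CCAAT. The letters were chosen with the expression results known, and a match describes the sequence only. The windows of CDK1, CCNB2 and CDC25C are printed because they hold the CHR letters, CCNB1 for its CCAAT boxes, CDC25A for its E2F letters and CCNE1 because none of the letters occurred, with each match in capitals.

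CDK1, chr10:60778328-60778497, plus strand: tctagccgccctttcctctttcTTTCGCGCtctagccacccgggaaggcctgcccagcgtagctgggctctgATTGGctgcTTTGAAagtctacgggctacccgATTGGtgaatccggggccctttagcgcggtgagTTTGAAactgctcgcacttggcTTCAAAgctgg
CCNB2, chr15:59104996-59105165, plus strand: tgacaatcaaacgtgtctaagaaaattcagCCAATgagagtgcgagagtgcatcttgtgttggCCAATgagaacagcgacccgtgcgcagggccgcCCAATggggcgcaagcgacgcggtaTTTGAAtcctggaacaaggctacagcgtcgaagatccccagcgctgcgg
CDC25C, chr5:138331785-138331954, minus strand: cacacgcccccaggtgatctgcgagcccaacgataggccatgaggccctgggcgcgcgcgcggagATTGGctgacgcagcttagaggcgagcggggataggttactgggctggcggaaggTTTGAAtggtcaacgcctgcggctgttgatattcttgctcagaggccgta
CCNB1, chr5:69167000-69167169, plus strand: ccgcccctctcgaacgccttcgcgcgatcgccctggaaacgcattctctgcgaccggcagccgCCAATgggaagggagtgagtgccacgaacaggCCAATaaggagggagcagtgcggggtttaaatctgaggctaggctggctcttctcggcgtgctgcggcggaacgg
CDC25A, chr3:48188398-48188567, minus strand: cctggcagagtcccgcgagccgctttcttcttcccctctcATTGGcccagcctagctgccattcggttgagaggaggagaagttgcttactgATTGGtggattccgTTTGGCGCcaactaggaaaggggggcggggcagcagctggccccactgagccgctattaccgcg
CCNE1, chr19:29811841-29812010, plus strand: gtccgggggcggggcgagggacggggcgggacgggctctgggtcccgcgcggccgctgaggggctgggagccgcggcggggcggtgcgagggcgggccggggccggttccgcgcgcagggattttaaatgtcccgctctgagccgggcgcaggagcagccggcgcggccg

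In the CDK1 window the CHR letters began 69 and 13 bases before and 10 bases after the start, the CCAAT letters 78 and 46 bases before it and the E2F letters 128 bases before it. CCNB2 held CCAAT at 120, 87 and 54 bases before the start with the CHR letters 29 bases before it. The CDC25C window held CCAAT 85 bases and the CHR letters 30 bases before the start. In each of these windows a CCAAT lay upstream of CHR letters, and 1 CDC25B window had the same order, at 73 and 38 bases. CCNB1 held CCAAT 87 and 55 bases before its start and neither TTTGAA nor TTCGAA, and CCNA2 held CCAAT 56 bases before its start. Other spellings of the CHR and of E2F sites were not searched, so the absence of either from a window is not shown. This holds for CCNE1 too, and sequence outside its window was not searched. CDC25A held CCAAT 110 and 58 bases and the E2F letters 44 bases before its start.

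Palbociclib lowered almost the whole set in both lines. In A549, 9 of the 10 genes fell and none rose, where 21.1% of the 15744 genes tested fell and 22% rose (edgeR quasi-likelihood test, adjusted p under 0.05). In SUM159, 9 fell and none rose, where 29% of 16080 genes fell and 25.5% rose. The median log2 change of the 10 genes was -1.90 in A549 and -1.35 in SUM159, against 0.028 and 0.019 over all genes tested. In each line 8 of the 10 fell by more than 1 on the log2 scale, a size that 2.78% of all genes reached in A549 and 2.1% in SUM159. The gene that did not pass the test was CCNE1 in both lines, and the smallest of the changes that passed was that of CDC25B. In bulk RNA, fewer cells in the phases that use these transcripts and less transcript per cell cannot be told apart.

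Indisulam alone moved the same genes little. In A549, 5 fell and 1 rose, where 25.9% of all genes fell and 23.3% rose, and in SUM159 7 fell and 1 rose, where 24.9% fell and 21.9% rose. No member changed by more than 1 on the log2 scale, and the median was -0.16 in A549 and -0.16 in SUM159, against 0.0089 and 0.0088 over all genes. The gene that rose was CCNB2 in both lines. Several of these calls were small and were lost on leaving out 1 library, which leaves 1 in its group, or with another scaling. With total counts in place of TMM, the SUM159 count was 5, of which 2 rose and 3 fell.

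With the combination all 10 genes fell in both lines, where 30.4% of genes fell and 27.4% rose in A549 and 33.1% fell and 32.2% rose in SUM159. The medians were -2.03 and -1.44, against 0.0014 and 0.015 over all genes. Again 8 of the 10 fell by more than 1, as did 7.63% of all genes in A549 and 4.27% in SUM159. With total counts, which moved the median of all genes by 0.149 in this SUM159 comparison and by 0.105 with palbociclib, 8 of the 10 fell in SUM159, CCNE1 (-0.13, adjusted p = 0.126) and CDC25B (-0.036, adjusted p = 0.392) no longer passing.

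**Figure D1:**
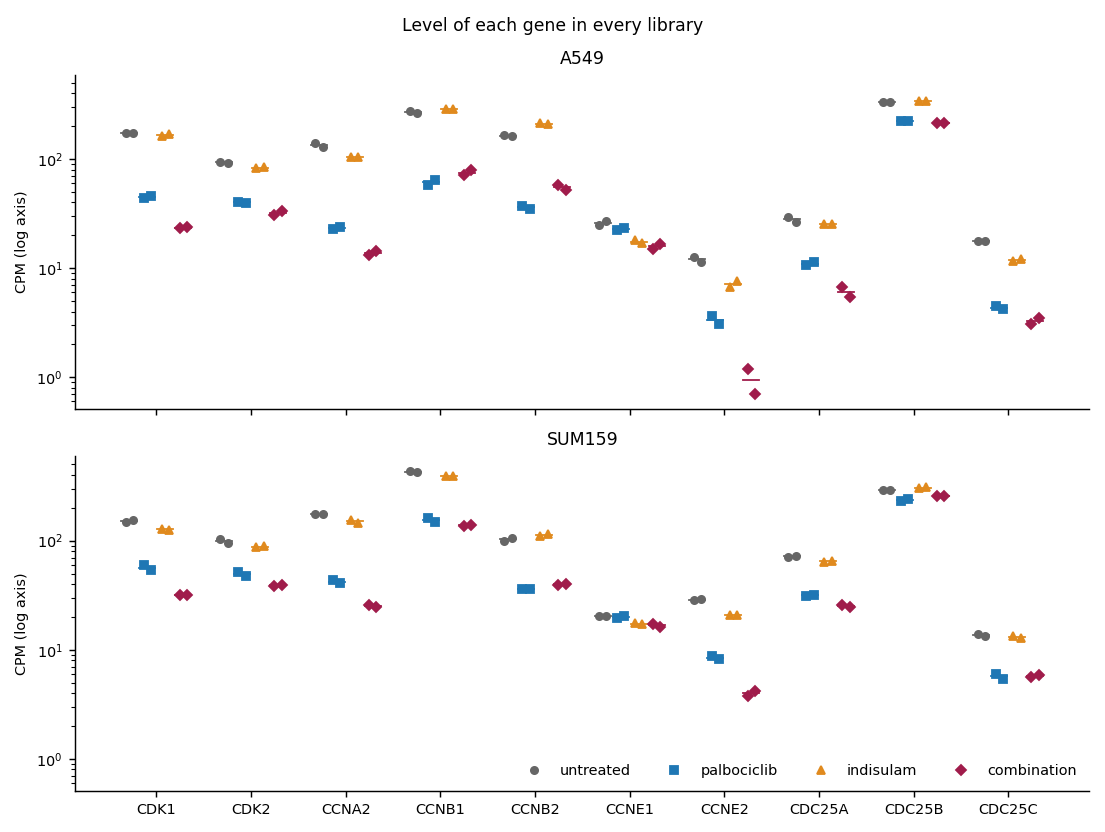
Level of each gene in CPM (log axis) in every library of A549 (top) and SUM159 (bottom); each point is 1 library, the short line is the mean of the 2, and colour and shape give the treatment. Palbociclib and combination libraries lie below the untreated and indisulam ones for 9 genes, whereas CCNE1 stays between 15.1 and 26.9 CPM throughout.

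**Figure D2:**
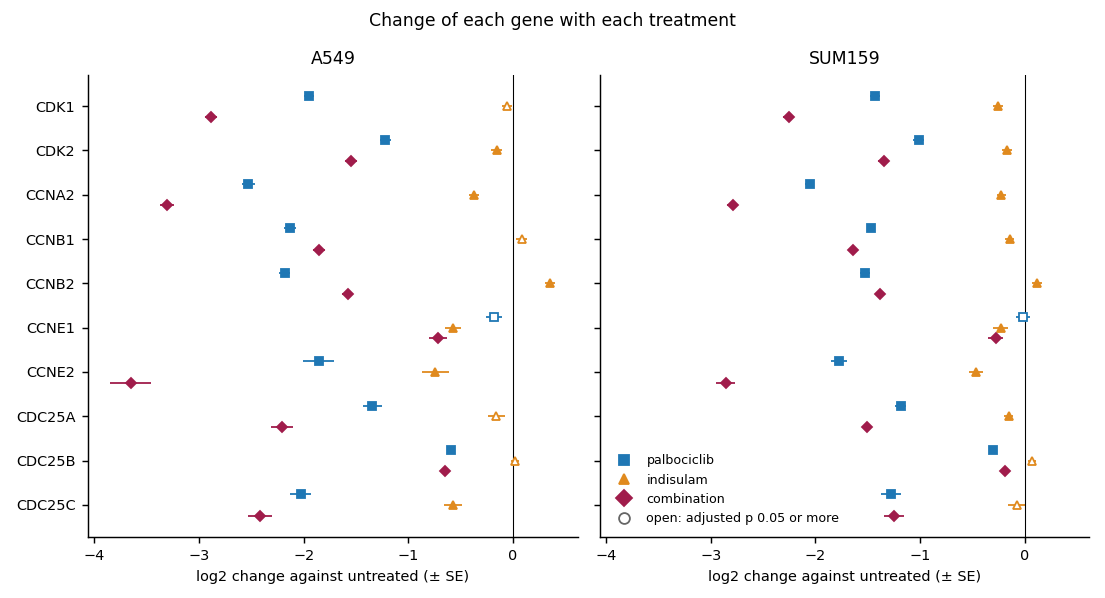
Log2 change of each gene against untreated cells of its line (x axis, ± SE) with palbociclib, indisulam and the combination; filled symbols passed the test and open ones did not. The combination moved CDK1, CCNA2 and CCNE2 past palbociclib in both lines, and in A549 left CCNB2 at -1.58, above its palbociclib value of -2.18.

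CDK1 (ENSG00000170312, chromosome 10, 60778331 to 60794852, plus strand) encodes the kinase that drives mitosis. In A549 CDK1 measured 174 and 175 CPM without drug, 43.9 and 46.3 CPM under palbociclib, 164 and 171 CPM under indisulam and 23.3 and 23.9 CPM under both. In SUM159 the respective values were 149.8 and 154, 59.7 and 53.7, 129 and 126 and 31.7 and 31.99 CPM. In both lines the palbociclib pairs lay far below the untreated pairs, the combination pairs lay lower still, and no 2 of these groups overlapped. Palbociclib gave CDK1 a log2 change of -1.95 (SE 0.0477, adjusted p = 2.94e-13) in A549 and of -1.43 (SE 0.0482, adjusted p = 1.99e-13) in SUM159. With the combination the change was -2.89 (SE 0.05298, adjusted p = 9.74e-15) and -2.26 (SE 0.0518, adjusted p = 5.999e-16), so that 13.5% and 20.9% of the untreated level was left. Indisulam alone lowered it in SUM159, with a log2 change of -0.26 (SE 0.0454, adjusted p = 0.000197), and gave -0.058 (SE 0.0436, adjusted p = 0.291) in A549.

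CDK2 (ENSG00000123374, chromosome 12, 55966781 to 55972789, plus strand) encodes the partner of cyclins E and A, and 654 of its exon bases lie opposite PMEL or an unnamed gene. The A549 libraries held CDK2 at 93.1 and 92.8 CPM untreated, at 40.7 and 39.3 CPM after palbociclib, at 82.1 and 84.9 CPM after indisulam and at 30.5 and 33.1 CPM after both drugs. The SUM159 libraries held it, in the same order, at 103 and 95.2, 51.1 and 47.3, 86.9 and 89.4 and 38.8 and 39.03 CPM. The order of the groups was that of CDK1, over a narrower range. The combination left 34.2% of the untreated level in A549 and 39.3% in SUM159, and adding indisulam to palbociclib lowered CDK2, with a log2 change of -0.33 (SE 0.0584, adjusted p = 0.0002804) and -0.34 (SE 0.0546, adjusted p = 8.08e-05). The small decrease with indisulam alone, -0.16 (SE 0.0506, adjusted p = 0.0197) in A549 and -0.17 (SE 0.04897, adjusted p = 0.0103) in SUM159, was lost in A549 without any 1 of the 2 untreated and 2 indisulam libraries (log2 change between -0.17 and -0.13) and in SUM159 without untreated replicate 1 (-0.11, adjusted p = 0.167) or indisulam replicate 1 (-0.15, adjusted p = 0.0808), or with total counts in either line.

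CCNA2 (ENSG00000145386, chromosome 4, 121816444 to 121823883, minus strand) encodes the cyclin of S phase and G2, and 254 of its exon bases lie opposite EXOSC9. In A549 CCNA2 measured 141 and 129.9 CPM without drug, 22.8 and 23.98 CPM under palbociclib, 105 and 104 CPM under indisulam and 13.1 and 14.3 CPM under both. In SUM159 the respective values were 174 and 175, 43.2 and 41.1, 154 and 146 and 25.8 and 24.6 CPM. The 4 groups were separate in each line, in the order untreated, indisulam, palbociclib and combination. CCNA2 fell more with palbociclib than any other of the 10 genes, with a log2 change of -2.53 (SE 0.0595, adjusted p = 2.201e-13) in A549 and of -2.05 (SE 0.0456, adjusted p = 2.61e-15) in SUM159. With the combination it fell 9.90-fold and 6.92-fold, and against palbociclib alone the change was -0.78 (SE 0.0759, adjusted p = 1.03e-06) and -0.74 (SE 0.0537, adjusted p = 1.11e-08). Indisulam alone gave -0.37 (SE 0.0521, adjusted p = 3.803e-05) and -0.22 (SE 0.04103, adjusted p = 0.000292).

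CCNB1 (ENSG00000134057, chromosome 5, 69167135 to 69178245, plus strand) encodes the main mitotic cyclin. The A549 libraries held CCNB1 at 277 and 266 CPM untreated, at 58.2 and 64.9 CPM after palbociclib, at 287 and 288 CPM after indisulam and at 70.8 and 79.4 CPM after both drugs. The SUM159 libraries held it, in the same order, at 432 and 428, 163 and 149, 388 and 389.5 and 137 and 139.9 CPM. The palbociclib and combination pairs were low in both lines, but their order differed, with the combination above palbociclib in A549 and below it in SUM159. Palbociclib lowered CCNB1, with a log2 change of -2.13 (SE 0.0584, adjusted p = 6.64e-13) and -1.47 (SE 0.0409, adjusted p = 2.12e-14). Adding indisulam to palbociclib then raised it in A549, by 0.28 (SE 0.0613, adjusted p = 0.00153), and lowered it in SUM159, with a log2 change of -0.17 (SE 0.0417, adjusted p = 0.00290). Indisulam alone gave 0.084 (SE 0.0535, adjusted p = 0.211) in A549 and -0.14 (SE 0.0393, adjusted p = 0.00648) in SUM159, the latter lost with total counts (adjusted p = 0.0722).

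CCNB2 (ENSG00000157456, chromosome 15, 59105126 to 59125045, plus strand) encodes the other B cyclin and was the 1 gene of the 10 called higher with indisulam, although CDC25B also passed in SUM159 with total counts (0.12, adjusted p = 0.00999). In A549 CCNB2 measured 167 and 161 CPM without drug, 37.5 and 34.95 CPM under palbociclib, 212 and 208 CPM under indisulam and 57.4 and 52.3 CPM under both. In SUM159 the respective values were 100.1 and 107, 36.3 and 35.7, 110.0 and 115 and 39.6 and 39.9 CPM. In A549 the indisulam pair lay above every untreated library, and the combination pair above the palbociclib pair; in SUM159 the same order held by a smaller margin. CCNB2 rose with indisulam by 0.36 (SE 0.0484, adjusted p = 2.83e-05) in A549. In SUM159 the increase was 0.12 (SE 0.0441, adjusted p = 0.0354), and it was lost without untreated replicate 1 (0.077, adjusted p = 0.285) or indisulam replicate 2 (0.095, adjusted p = 0.216), with RLE scaling, with DESeq2 and without the filter. On top of palbociclib, indisulam raised CCNB2 by 0.60 (SE 0.0581, adjusted p = 9.15e-07) in A549 and by 0.14 (SE 0.05201, adjusted p = 0.0308) in SUM159, where the call was lost on leaving out any 1 of the 4 libraries compared (log2 change between 0.12 and 0.15). Palbociclib alone lowered it, with a log2 change of -2.18 (SE 0.0547, adjusted p = 3.24e-13) and -1.52 (SE 0.0487, adjusted p = 1.01e-13).

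CCNE1 (ENSG00000105173, chromosome 19, 29811991 to 29824312, plus strand) encodes the cyclin that, with CDK2, brings cells into S phase. The A549 libraries held CCNE1 at 25.1 and 26.9 CPM untreated, at 22.4 and 23.3 CPM after palbociclib, at 18.02 and 16.9 CPM after indisulam and at 15.1 and 16.5 CPM after both drugs. The SUM159 libraries held it, in the same order, at 20.2 and 20.6, 19.7 and 20.6, 17.4 and 17.3 and 17.3 and 16.3 CPM. The palbociclib pair lay just below the untreated pair in A549 and around it in SUM159, and the indisulam and combination pairs lay below both. The change with palbociclib was -0.18 (SE 0.0755, adjusted p = 0.0665) in A549, which passed without combination replicate 1 (-0.20, adjusted p = 0.0302) or replicate 2 (-0.20, adjusted p = 0.0307), and -0.015 (SE 0.0686, adjusted p = 0.865) in SUM159, with a 95% interval from -0.15 to 0.12. Indisulam lowered CCNE1, with a log2 change of -0.57 (SE 0.0795, adjusted p = 3.63e-05) in A549 and of -0.23 (SE 0.0715, adjusted p = 0.0141) in SUM159, where the call was lost without any 1 of the 4 libraries compared (log2 change between -0.24 and -0.22), with total counts and with DESeq2. Against indisulam alone, the combination gave -0.14 (SE 0.0835, adjusted p = 0.193) and -0.046 (SE 0.0697, adjusted p = 0.607), the only 1 of the 10 genes not called there in either line.

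CCNE2 (ENSG00000175305, chromosome 8, 94879770 to 94896678, minus strand) encodes the other E cyclin, and 1633 of its exon bases lie opposite INTS8, NDUFAF6 and neighbouring transcripts. In A549 CCNE2 measured 12.7 and 11.4 CPM without drug, 3.63 and 3.103 CPM under palbociclib, 6.72 and 7.69 CPM under indisulam and 1.196 and 0.703 CPM under both. In SUM159 the respective values were 28.7 and 29.1, 8.78 and 8.16, 21.01 and 20.9 and 3.81 and 4.18 CPM. The groups were separate in each line and the A549 combination libraries, with 26 and 15 reads, held the lowest values of any member. Against palbociclib alone the combination lowered CCNE2, with a log2 change of -1.79 (SE 0.239, adjusted p = 2.18e-05) and -1.08 (SE 0.104, adjusted p = 2.67e-07), and against untreated cells it fell 12.6-fold and 7.25-fold. Indisulam alone gave -0.74 (SE 0.1295, adjusted p = 0.000281) and -0.46 (SE 0.0672, adjusted p = 2.59e-05).

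CDC25A (ENSG00000164045, chromosome 3, 48157146 to 48188417, minus strand) encodes the phosphatase that frees CDK2 at the start of S phase. The A549 libraries held CDC25A at 29.6 and 26.6 CPM untreated, at 10.7 and 11.3 CPM after palbociclib, at 25.2 and 25.1 CPM after indisulam and at 6.67 and 5.48 CPM after both drugs. The SUM159 libraries held it, in the same order, at 70.8 and 72.8, 31.4 and 31.7, 63.4 and 65.6 and 25.7 and 24.8 CPM. The combination pairs were lowest in both lines and did not overlap the palbociclib pairs. Palbociclib lowered CDC25A, with a log2 change of -1.35 (SE 0.0894, adjusted p = 1.87e-08) and -1.19 (SE 0.05003, adjusted p = 3.25e-12), and adding indisulam lowered it further, with a log2 change of -0.86 (SE 0.112, adjusted p = 1.78e-05) and -0.32 (SE 0.0548, adjusted p = 0.000126). Indisulam alone gave -0.16 (SE 0.0819, adjusted p = 0.1195) in A549, which passed without combination replicate 1 (-0.18, adjusted p = 0.0448) or replicate 2 (-0.18, adjusted p = 0.04495). In SUM159 it gave -0.15 (SE 0.0468, adjusted p = 0.0127), lost without untreated replicate 2 (-0.14, adjusted p = 0.0955) or indisulam replicate 1 (-0.13, adjusted p = 0.106) and with total counts.

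CDC25B (ENSG00000101224, chromosome 20, 3786772 to 3806121, plus strand) encodes a phosphatase that starts cyclin B-CDK1 activation at the G2 to M boundary, and it was the best-read of the 3 family members. In A549 CDC25B measured 336 and 336 CPM without drug, 224 and 224 CPM under palbociclib, 339.6 and 342 CPM under indisulam and 216 and 213 CPM under both. In SUM159 the respective values were 293 and 293, 233 and 241, 301 and 313 and 258 and 257 CPM. Palbociclib and combination libraries lay below the other groups in both lines, but by less than for any other gene that changed. Palbociclib left 66.5% of the untreated level in A549, a log2 change of -0.59 (SE 0.0367, adjusted p = 9.33e-09), and 80.9% in SUM159, a log2 change of -0.31 (SE 0.0357, adjusted p = 1.48e-06). Adding indisulam to palbociclib gave -0.061 (SE 0.03698, adjusted p = 0.1803) in A549 and an increase of 0.12 (SE 0.0355, adjusted p = 0.00967) in SUM159, lost without palbociclib replicate 1 (0.086, adjusted p = 0.08597) or combination replicate 1 (0.12, adjusted p = 0.0596). Indisulam alone gave 0.020 (SE 0.0363, adjusted p = 0.681) and 0.069 (SE 0.0355, adjusted p = 0.123).

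CDC25C (ENSG00000158402, chromosome 5, 138285269 to 138338355, minus strand) encodes the phosphatase that amplifies CDK1 activity in mitosis, and 293 of its exon bases lie opposite FAM53C. The A549 libraries held CDC25C at 17.6 and 17.6 CPM untreated, at 4.495 and 4.18 CPM after palbociclib, at 11.6 and 12.02 CPM after indisulam and at 3.08 and 3.52 CPM after both drugs. The SUM159 libraries held it, in the same order, at 14.03 and 13.4, 6.04 and 5.36, 13.3 and 12.9 and 5.68 and 5.896 CPM. The indisulam pair stood below the untreated pair in A549 and just below it in SUM159, and the combination pair stood below the palbociclib pair in A549 and within its range in SUM159. Palbociclib lowered CDC25C, with a log2 change of -2.03 (SE 0.104, adjusted p = 8.31e-10) and -1.27 (SE 0.0976, adjusted p = 8.095e-09). Indisulam lowered it in A549, with a log2 change of -0.57 (SE 0.0902, adjusted p = 0.000113), and gave -0.069 (SE 0.0862, adjusted p = 0.545) in SUM159. On top of palbociclib the change was -0.38 (SE 0.138, adjusted p = 0.0311) in A549, lost without palbociclib replicate 1 (-0.34, adjusted p = 0.101), palbociclib replicate 2 (-0.44, adjusted p = 0.0609) or combination replicate 1 (-0.27, adjusted p = 0.235), and 0.027 (SE 0.108, adjusted p = 0.855) in SUM159.

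Set against the single drugs, the combination shared its libraries with the comparisons above. Against palbociclib alone, 7 of the 10 genes fell and 2 rose in A549, where 27.8% of all genes fell and 23.7% rose, and 7 fell and 2 rose in SUM159, where 24.9% fell and 23.4% rose. The genes that rose were CCNB1 and CCNB2 in A549 and CCNB2 and CDC25B in SUM159. Against indisulam alone, 9 fell and none rose in each line, where 20.1% of all genes fell and 18.6% rose in A549 and 28% fell and 24.9% rose in SUM159.

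CDK1 and CCNA2 fell further with the combination than their 2 single-drug changes added on the log2 scale, in both lines. For CDK1 in A549 the single-drug changes summed to -2.00 and the combination gave -2.89, a departure of -0.88 (SE 0.0716, adjusted p = 9.08e-05). In SUM159 the sum was -1.68, the combination -2.26 and the departure -0.57 (SE 0.07098, adjusted p = 0.000431). The CDK1 transcript was thus 54.3% and 67.2% of the additive value, and the call held on leaving out any 1 library of either line. For CCNA2 the departure was -0.41 (SE 0.0924, adjusted p = 0.0275) in A549 and -0.52 (SE 0.0677, adjusted p = 0.0007098) in SUM159. The SUM159 value passed without any 1 library, whereas the A549 value was lost with DESeq2 (adjusted p = 0.0985) and without untreated replicate 2 (-0.35, adjusted p = 0.0976), palbociclib replicate 2 (-0.36, adjusted p = 0.136), indisulam replicate 1 (-0.39, adjusted p = 0.109), indisulam replicate 2 (-0.42, adjusted p = 0.121) or combination replicate 1 (-0.30, adjusted p = 0.109).

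CDC25A and CCNE2 each departed from the sum in 1 line. CDC25A was below it in A549, at -0.70 (SE 0.1397, adjusted p = 0.0152), and gave -0.17 (SE 0.0721, adjusted p = 0.219) in SUM159. The A549 call was lost without untreated replicate 2 (-0.63, adjusted p = 0.06302), palbociclib replicate 2 (-0.65, adjusted p = 0.0904), indisulam replicate 1 (-0.70, adjusted p = 0.0753) or indisulam replicate 2 (-0.70, adjusted p = 0.09302). CCNE2 was below the sum in SUM159, at -0.62 (SE 0.125, adjusted p = 0.0101), lost without combination replicate 1 (-0.55, adjusted p = 0.0704), and gave -1.05 (SE 0.282, adjusted p = 0.0555) in A549, which passed without combination replicate 1 (-1.45, adjusted p = 0.0167). Whether the departures differed between the lines was not tested. In A549, 3 of the 10 genes were below the sum and none above, where 2.05% of all genes were below and 1.49% above. In SUM159, 3 were below and none above, where 2.16% were below and 2.22% above. Neither B cyclin was called below the sum in either line: CCNB1 gave 0.20 (SE 0.0813, adjusted p = 0.2095) in A549, passing only without combination replicate 1 (0.32, adjusted p = 0.0173), and CCNB2 gave 0.25 (SE 0.0756, adjusted p = 0.0895), passing only without combination replicate 2 (0.34, adjusted p = 0.00999) and without the filter.

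**Figure D3:**
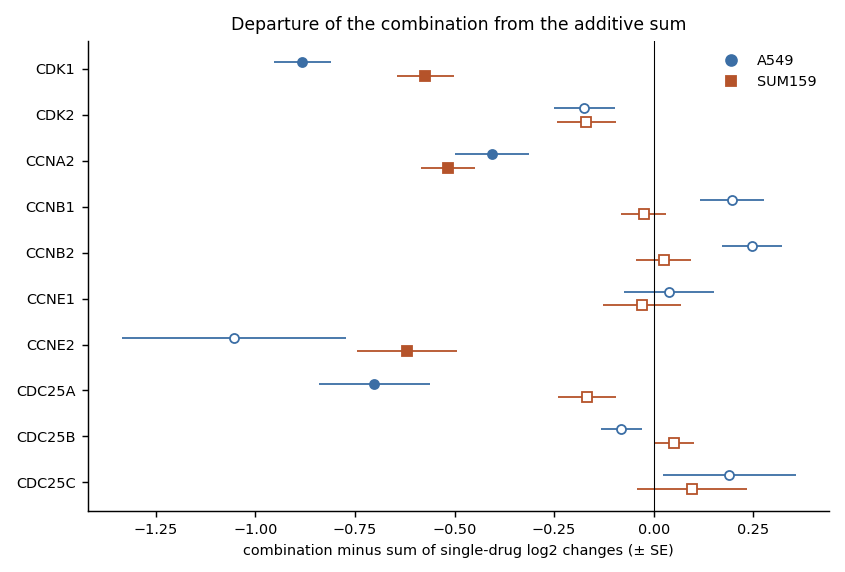
Combination log2 change minus the added changes of the 2 drugs alone (x axis, ± SE) for each gene in A549 and SUM159; filled symbols passed the test and open ones did not. CDK1 and CCNA2 lie left of 0 with filled symbols in both lines, CDK1 at -0.88 and -0.57, while the B cyclins lie right of 0 in A549 with open symbols.

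Ratios of paired genes within a library do not depend on library scaling, and show how the composition of the set changed. They are ratios of counts per kilobase of annotated exon, and with 2 libraries against 2 no exact test can go below 0.05, so they are given as values. The CDK1 to CDK2 ratio was 1.86 and 1.87 in untreated A549, 1.07 and 1.17 after palbociclib, 1.99 and 2.004 after indisulam and 0.759 and 0.718 after both. In SUM159 it was 1.45 and 1.61, 1.16 and 1.13, 1.48 and 1.40 and 0.814 and 0.815. In both lines CDK1 was thus the more abundant kinase transcript in every group but the combination, where all 4 libraries fell below 1. Where the ratio crosses 1 rests on the exon lengths, 3909 bases for CDK1 and 3887 for CDK2. Of the CDK2 bases, 654 lie opposite other genes, and whether reads there were counted is not known. The order of the groups does not depend on the lengths. The CCNB2 to CCNB1 ratio was 0.532 and 0.536 in untreated A549 and 0.652 and 0.638 with indisulam, and 0.205 and 0.221 and 0.2504 and 0.260 in SUM159. It was higher in both indisulam libraries than in both untreated libraries of each line.

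The balance of the E cyclins moved towards CCNE1. The ratio of CCNE2 to CCNE1 stood at 0.795 and 0.792 in untreated SUM159, 0.2495 and 0.222 after palbociclib, 0.676 and 0.673 after indisulam and 0.123 and 0.144 with the combination. In A549 it stood at 0.283 and 0.237, 0.0909 and 0.0746, 0.209 and 0.255 and 0.0444 and 0.0239. Before division by exon length, CCNE2 had more reads than CCNE1 in untreated SUM159, at 595 and 607 against 419 and 429. The same held with indisulam in SUM159, at 524 and 588 against 434 and 489. Which of the 2 led in these libraries thus rests on the exon lengths, 4397 bases for CCNE2 and 2461 for CCNE1. Of the CCNE2 bases, 1633 lie opposite other genes, and whether reads there were counted is not known. Per kilobase of these exons, CCNE1 was the more abundant E cyclin in every library of both lines, and its share was highest with the combination. CDC25B likewise dominated its family: the CDC25A to CDC25B ratio was 0.228 and 0.234 in untreated SUM159 and 0.0936 and 0.0909 with the combination, and 0.0827 and 0.0745 and 0.0291 and 0.0242 in A549. The CDC25C to CDC25B ratio went from 0.0612 and 0.0615 to 0.0168 and 0.0193 in A549 and from 0.0562 and 0.0537 to 0.0258 and 0.0269 in SUM159.

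**Figure D4:**
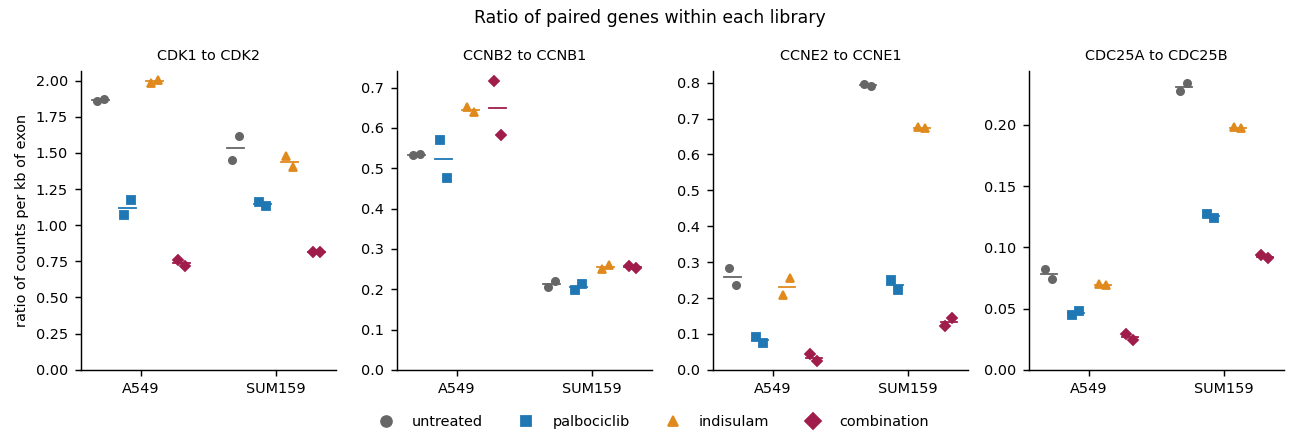
Ratio of counts per kilobase of exon between paired genes in each library (y axes start at 0), by line and treatment; points are libraries and short lines their means. With the exon lengths used, CDK1 to CDK2 falls below 1 in all 4 combination libraries. CCNE2 to CCNE1 is lowest there in both lines, at 0.0444 and 0.0239 in A549 and 0.123 and 0.144 in SUM159.

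Per kilobase of exon, CCNB1 was the most abundant of the 10 transcripts in untreated cells, with a mean of 112 CPM per kilobase in A549 and 177 in SUM159. CDC25B came second in both lines, at 86.2 and 75.02. In A549 the order went on with CCNB2 (59.5), CCNA2 (49.3), CDK1 (44.6), CDK2 (23.9), CCNE1 (10.6), CDC25A (6.77), CDC25C (5.29) and CCNE2 (2.73), and no neighbours in that order overlapped between duplicates. In SUM159 it went on with CCNA2 (63.6), CDK1 (38.9), CCNB2 (37.6), CDK2 (25.5), CDC25A (17.3), CCNE1 (8.28), CCNE2 (6.57) and CDC25C (4.12), where CDK1 and CCNB2 overlapped. With the combination CDC25B led in both lines, at 54.9 in A549 and 66.0 in SUM159, and CCNE2 was last, at 0.216 and 0.909. CDK1 went from above CDK2 to below it in both lines. These orders between genes rest on the annotated exon lengths and on whether reads were counted where exons lie opposite other genes.

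Before treatment the lines themselves differed in 9 of the 10 genes, 4 higher and 5 lower in SUM159, where 38.3% of 17764 genes were higher and 38% lower in the fit of all libraries. CDC25A and CCNE2 were higher in SUM159 by 1.22 (SE 0.0633, adjusted p = 6.17e-15) and 1.13 (SE 0.0927, adjusted p = 5.35e-11), and CCNB1 and CCNA2 by 0.53 (SE 0.0493, adjusted p = 5.41e-10) and 0.24 (SE 0.0475, adjusted p = 9.22e-05). CCNB2 was lower, at -0.79 (SE 0.0481, adjusted p = 1.42e-13), and CDC25C, CCNE1, CDC25B and CDK1 were lower by between 0.33 and 0.49. CDK2 was at -0.042 (SE 0.0509, adjusted p = 0.463), with a 95% interval from -0.14 to 0.058.

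The size of the response differed between the lines for most of the genes. With palbociclib 7 of the 10 genes had the less negative change in SUM159 and none the more negative, where 9.65% of all genes differed in that direction and 3.15% in the other (interaction in the fit of all libraries). The differences, SUM159 minus A549, were 0.85 for CDC25C, 0.76 for CCNB1, 0.76 for CCNB2, 0.62 for CDK1, 0.57 for CCNA2, 0.38 for CDC25B and 0.31 for CDK2. CCNE2 at 0.18 (SE 0.1601, adjusted p = 0.533), CDC25A at 0.26 (SE 0.0981, adjusted p = 0.0923) and CCNE1 at 0.26 (SE 0.102, adjusted p = 0.0973) did not pass. With the combination all 10 changes were less negative in SUM159, where 19.1% of all genes differed that way and 11.8% the other way, from 0.27 for CCNB2 to 1.23 for CDC25C. With RLE scaling 8 of these 10 calls were made, CDK2 (0.18, adjusted p = 0.0848) and CCNB2 (0.18, adjusted p = 0.0705) being lost, and with DESeq2 7, CDK2, CCNB1 and CCNB2 being lost (adjusted p = 0.179, 0.0613 and 0.138). With palbociclib 6 of the 7 were called with either, CDK2 being lost (0.21, adjusted p = 0.0765 with RLE).

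These differences moved with the scaling across lines. The median over all genes was 0.082 with palbociclib and 0.0995 with the combination, and on leaving out 1 library it ran from -0.10 to 0.086 and from -0.058 to 0.11. Less that median, CDC25C stood at 1.13, CCNE2 at 0.76, CDC25A at 0.67 and CDK1 at 0.60 with the combination. The calls for CDK1, CCNA2, CDC25B and CDC25C with both palbociclib and the combination held in all 16 fits that left out 1 library, as did those for CCNB1 and CCNB2 with palbociclib and CDC25A with the combination. Those for CDK2 held in 7 of 16 with each treatment, being lost without any 1 of the 8 A549 libraries or SUM159 untreated replicate 2. With the combination those for CCNB2 held in 7, being lost without any 1 of the 8 A549 libraries or SUM159 untreated replicate 1, those for CCNB1 in 9, being lost without any 1 A549 library but combination replicate 2, and those for CCNE1 and CCNE2 in 14. CCNE2 was lost without A549 untreated replicate 1 (0.63, adjusted p = 0.0728) or combination replicate 2 (0.38, adjusted p = 0.359), and CCNE1 without A549 untreated replicate 2 (0.32, adjusted p = 0.0535) or combination replicate 1 (0.30, adjusted p = 0.0643). For CDK2, CCNB1 and CCNB2 the value without 1 library was as low as 0.067 (CDK2, A549 combination replicate 1), 0.059 (CCNB1, the same library) and 0.048 (CCNB2, A549 combination replicate 2).

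With indisulam alone, 2 genes had the higher change in SUM159 and 3 the lower, where 8.04% and 6.97% of all genes did. CDC25C differed by 0.51 (SE 0.122, adjusted p = 0.006104) and held without any 1 library, but not with DESeq2 (0.50, adjusted p = 0.0809). The other calls, CCNE1 at 0.34, CCNB2 at -0.24, CCNB1 at -0.23 and CDK1 at -0.20, held in 10, 12, 9 and 6 of 16 fits without 1 library, with values there from 0.28 to 0.39, from -0.29 to -0.19, from -0.28 to -0.21 and from -0.23 to -0.17. The CDK1 call was lost without any 1 untreated or indisulam library of either line or either SUM159 combination library. The CCNB1 call was lost without any 1 of those untreated or indisulam libraries but A549 untreated replicate 1, and the CCNE1 call without A549 untreated or indisulam replicate 2 or any 1 of the 4 such SUM159 libraries. The CCNB2 call was lost without untreated replicate 2 or indisulam replicate 1 of either line.

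**Figure D5:**
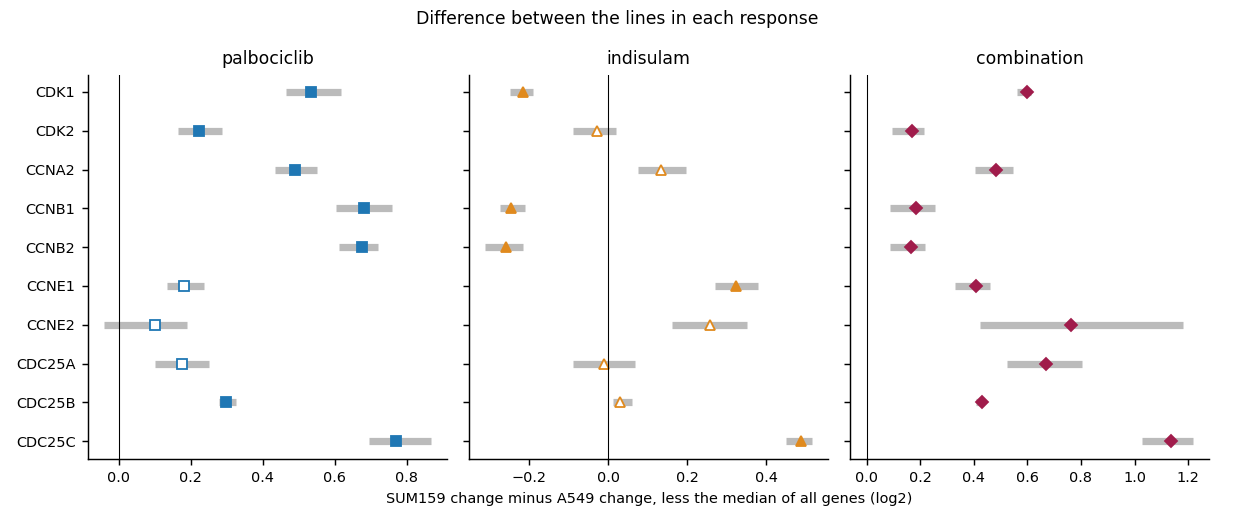
Change in SUM159 minus change in A549 (log2), less the median of all genes, for each gene and treatment; symbols are the fit of all 16 libraries (filled, passed; open, not passed) and grey bars span the fits that left out 1 library. With the combination all 10 symbols lie right of 0, from 0.17 for CCNB2 to 1.13 for CDC25C.

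The enzymes that restrain or release these kinases were read beside them. Both inhibitory kinases fell with palbociclib and with the combination in both lines. PKMYT1 stood with the combination at a log2 change of -2.73 (SE 0.114, adjusted p = 4.34e-11) in A549 and -1.76 (SE 0.0598, adjusted p = 9.61e-14) in SUM159, and WEE1 at -1.61 (SE 0.104, adjusted p = 6.55e-09) and -0.63 (SE 0.0627, adjusted p = 1.24e-07). With indisulam alone neither passed in A549, and WEE1 rose in SUM159 by 0.40 (SE 0.0584, adjusted p = 2.96e-05). The transcripts of the brake and of the CDC25 release thus fell in the same libraries. The 3 CIP/KIP inhibitors block the kinases directly. With palbociclib 1 of them fell in A549, CDKN1B (-0.44), and 2 in SUM159, CDKN1B (-0.45) and CDKN1A (-0.23), where 21.1% and 29% of all genes fell. With indisulam CDKN1A rose in A549 (0.21) and fell in SUM159 (-0.25). With the combination CDKN1B fell in both lines (-0.52 and -0.50), while CDKN1A rose in A549, by 0.53 (SE 0.07395, adjusted p = 2.33e-05), and fell in SUM159, with a log2 change of -0.55 (SE 0.0563, adjusted p = 1.99e-07), and CDKN1C did not pass with any treatment against untreated cells.

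Of the 5 genes of the CDK-activating kinase and the CKS proteins, 1 fell and 2 rose with indisulam in A549 and 2 fell in SUM159. Of all genes, 25.9% fell and 23.3% rose with indisulam in A549 and 24.9% fell and 21.9% rose in SUM159, and nothing particular to the 5 genes is read from these counts. The cyclin H gene CCNH changed most, with -1.54 (SE 0.0944, adjusted p = 1.06e-08) in A549 and -1.40 (SE 0.0628, adjusted p = 4.35e-11) in SUM159. With palbociclib 2 of the 5 fell and 1 rose in A549, where 21.1% of all genes fell and 22% rose. In SUM159 2 fell, where 29% fell and 25.5% rose, and nothing particular to the list is read from these counts either. The genes that fell were CKS1B and CKS2, small proteins that dock on CDK1 and CDK2. Their log2 changes were -0.86 and -1.02 in A549 and -0.86 and -0.58 in SUM159. With the combination 3 of the 5 fell and 1 rose in A549, and 4 fell in SUM159, where 30.4% and 33.1% of all genes fell and 27.4% and 32.2% rose. The list for degradation of cyclins and CDC25 held 10 genes, whether they carry it out or restrain it, as FBXO5 does. A decrease in this list thus has no single direction for degradation. With palbociclib 7 fell in A549 and 8 in SUM159, against 21.1% and 29% of all genes. The largest decreases were those of UBE2C (-2.21), CCNF (-2.13) and UBE2S (-1.87) in A549. In SUM159 they were those of CCNF (-1.56), FBXO5 (-1.40) and CDC20 (-1.40). With indisulam 5 fell and 3 rose in A549 and 6 fell in SUM159, against the indisulam shares of all genes just given, and with the combination 8 fell and 1 rose in A549 and 9 fell in SUM159, against the combination shares.

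Of 10 kinases and phosphatase regulators that act on CDC25 or cyclin B-CDK1, 9 fell with palbociclib in A549 and 7 in SUM159, where 21.1% and 29% of all genes fell. PLK1, the kinase that activates CDC25C in mitosis, changed most, with -2.57 (SE 0.04701, adjusted p = 5.25e-14) and -1.86 (SE 0.0371, adjusted p = 6.47e-16), followed by AURKA (-1.78) and BORA (-1.44) in A549 and by MASTL (-1.24) and AURKA (-1.21) in SUM159. With indisulam 2 fell and 3 rose in A549 and 3 fell and 3 rose in SUM159, near the shares of all genes (25.9% and 23.3% in A549, 24.9% and 21.9% in SUM159). With the combination 7 fell in each line, where 30.4% and 33.1% of all genes fell. The list of 13 transcription factors of these genes also held cofactors and repressors, such as RBL1, so a decrease in it has no single direction. Of the 13, 10 fell with palbociclib in A549 and 11 in SUM159. MYBL2 (-2.25 and -1.87) and FOXM1 (-2.16 and -1.64) were among the 3 largest changes in each line. The 1 that rose, RBL2, named here after its values were seen, encodes a pocket protein of the DREAM complex and changed by little (0.17 and 0.28). With indisulam 4 fell and 2 rose in each line, again near the shares of all genes. RBL1 had the largest decrease there in A549, at -1.38 (SE 0.0813, adjusted p = 6.95e-09), and MYBL2 in SUM159, at -0.84 (SE 0.0452, adjusted p = 3.85e-10), while RBL1 in SUM159 and MYBL2 in A549 stood at -0.50 and -1.10. With the combination 9 fell and 2 rose in A549 and 11 fell and 2 rose in SUM159, and MYBL2 reached -3.63 and -2.63. With the combination the median log2 change in A549 and SUM159 was -0.54 and -0.82 for the transcription factors, -0.60 and -0.72 for the kinases and phosphatase regulators, -1.60 and -1.41 for the degradation genes, -0.99 and -0.94 for the CDK-activating kinase and CKS genes, -0.21 and -0.50 for the CIP/KIP inhibitors and -2.17 and -1.20 for the inhibitory kinases, where all genes had 0.0014 and 0.015.

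Across the 16 libraries, after the mean of each line was taken from log2(CPM + 1), the genes most like each member among 9617 compared were found by Pearson's r. The 8 groups are shared by all genes, so these values describe likeness and carry no p-value. CDK1 was most like DDIAS (r = 0.997) and KIF14 (0.996), CDK2 most like KIF11 (0.998) and MCM6 (0.997), and CCNA2 most like KIF11 (0.998) and CENPN (0.997). The B cyclins were nearest to other genes, CCNB1 to DLGAP5 (0.997) and EBP (0.994) and CCNB2 to NEK2 (0.995) and PTTG1 (0.991). CCNE2 was most like CLSPN (0.996) and RRM2 (0.995), whereas CCNE1 was most like ABHD3 (0.983) and ZBTB8OS (0.974). CDC25A was most like HASPIN (0.998) and ESCO2 (0.997), CDC25B like STARD8 (0.981) and WEE1 (0.981), and CDC25C like DIAPH3 (0.993) and TIMELESS (0.991). Among the 10 genes themselves CDK2 and CCNA2 were nearest (0.998), CCNB1 was nearest to CCNB2 (0.984), and CCNE1 was the farthest from each of the other 9, with its highest value, 0.546, against CCNE2 and its lowest, 0.054, against CCNB2.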

How the data were processed

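The authors prepared poly(A)-selected, strand-specific RNA libraries from 16 samples in 8 groups (2 cell lines, 4 treatments, 2 technical duplicates each) and sequenced paired-end reads. They trimmed the reads with SeqPurge and aligned them to GRCh38 with HISAT2 (version 2.2.1 in the submitters' processing notes). HTSeq counts per gene were deposited, neither normalized nor pooled. The annotation release and the strand setting of the counting are not given in the sources used here. Reads without a gene (3.89 to 6.78% of the rows' sum), ambiguous reads (4.38 to 5.62%) and reads not uniquely aligned (4.25 to 5.25%) were left out of library sizes and tests.

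From these counts, edgeR 4.0.16 (R 4.3.3) gave quasi-likelihood tests with TMM scaling, a filter on low counts and Benjamini-Hochberg adjustment over all genes tested (15744 in A549, 16080 in SUM159, 17764 in both). Each line was fitted on its 8 libraries, with 1 term per group. Differences between lines came from a fit of all 16. An adjusted p under 0.05 was called, and the SE of a log2 change was its size divided by the square root of F. Departure from additivity was the combination change minus the sum of the single-drug changes. Alternatives were total-count and RLE scaling, DESeq2 1.42.0, no low-count filter, a replicate block and leaving out each library. The 95% intervals of log2 changes come from the SE and so hold the spread between libraries, while floors of 3 counts cover counting error only. Of 58676 identifiers, 58207 matched GENCODE 44, which gave coordinates (GRCh38) and exon lengths. Promoter sequences are from RefSeq, GRCh38.p14.

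The test was tested on simulated data, with 200 genes changed by a log2 change of 1 in a comparison modelled on indisulam. There edgeR recovered 83.5% in A549 (15434 genes) with 4.57% false calls, and 86.5% in SUM159 (15747 genes) with 9.42%. The SUM159 share of false calls was above what the 0.05 threshold aims at. With no departure from additivity simulated, edgeR called 1 gene in A549 and 6 in SUM159. In the data 25.9% of genes fell and 23.3% rose with indisulam in A549, so the simulation does not give their error rate. The 10 genes and the regulator lists were chosen with earlier results of these data known. The text names all 10, at most 3 called genes of a regulator list in a comparison by size of change, and the 2 genes most like each member, among genes of at least 5 CPM in both lines. The lists were the CDK-activating kinase and CKS, the inhibitory kinases, the CIP/KIP inhibitors, degradation, CDC25 and cyclin B-CDK1 regulators, and transcription factors. Further lists held relatives named as little expressed and cell type markers.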

Additional observations from a re-analysis of the deposited data

Results flagged for a closer look

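The log2 changes of 22 combinations of gene and treatment differed between SUM159 and A549 in the interaction test (edgeR quasi-likelihood test, adjusted p under 0.05), and are given as the change in SUM159 minus that in A549. With palbociclib they were CDK1 (0.62), CDK2 (0.31), CCNA2 (0.57), CCNB1 (0.76), CCNB2 (0.76), CDC25B (0.38) and CDC25C (0.85). This comparison called 9.65% of all genes higher in SUM159 and 3.15% lower. The CDK2 call held in 7 of the 16 fits that left out 1 library, and the other calls held in all 16. With the combination they were CDK1 (0.70), CDK2 (0.27), CCNA2 (0.58), CCNB1 (0.28), CCNB2 (0.27), CCNE1 (0.51), CCNE2 (0.86), CDC25A (0.77), CDC25B (0.53) and CDC25C (1.23). Here 19.1% of all genes were called higher and 11.8% lower. Calls for CDK2 and CCNB2 held in 7 of the 16 fits, CCNB1 in 9, CCNE1 and CCNE2 in 14, and the rest in all 16. With indisulam they were CDK1 (-0.20), CCNB1 (-0.23), CCNB2 (-0.24), CCNE1 (0.34) and CDC25C (0.51). The shares of all genes called were 8.04% higher and 6.97% lower. Only CDC25C held in all 16 fits, while CDK1 held in 6, CCNB1 in 9, CCNE1 in 10 and CCNB2 in 12. Scaling across the lines moved with these values, since the median over all genes was 0.082 with palbociclib, 0.019 with indisulam and 0.0995 with the combination.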

How the results depend on the processing

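Over the 160 pairs of gene and comparison, direction and call were kept in 155 with RLE scaling, 149 without the low-count filter, 146 with total counts, 146 with DESeq2 and 159 with the replicate block, and in 1464 values from fits that left out 1 library, where 98 calls were lost, 7 gained and 31 signs changed. Same-numbered libraries deviated together in some pairs of groups and oppositely in others (correlations of deviations from -0.36 to 0.32 over 12 pairs, 3 above 0.1). The block ended 1 call, the CDK1 line difference with indisulam (-0.20, adjusted p = 0.0524 in edgeR's quasi-likelihood test), giving 4 called genes there.

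The number of genes called moved by more than 1.5 times in A549 additivity without the filter (5 against 3), in SUM159 with indisulam with total counts (5 against 8) and in the line difference with indisulam with total counts (3 against 5) and DESeq2 (2). Leaving out 1 library gave 1 to 4 genes in A549 additivity, 2 to 3 in SUM159 additivity, 5 to 8 in SUM159 with indisulam, 5 to 7 in A549 with indisulam, and 1 to 5, 6 to 7 and 6 to 10 in the line differences with indisulam, palbociclib and the combination. Against palbociclib alone, it gave 8 to 9 genes in A549 and 7 to 9 in SUM159, and 9 to 10 in A549 with palbociclib. The causes were not tested.

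The values that changed sign had not passed the test. With total counts these were CCNE1 in SUM159 with palbociclib (0.0899) and for the combination against indisulam (0.0486), CDK2 in the line difference with indisulam (0.0150) and CDK2 between untreated lines (0.0568). Without the filter they were CCNE1 in SUM159 with palbociclib (0.0099), CCNB2 in SUM159 additivity (-0.0085) and CDK2 in the line difference with indisulam (0.0159). CDC25A in that difference reversed with RLE (-0.0016) and DESeq2 (-0.0021). On leaving out 1 library the values with both signs ran from -0.0012 to 0.0312 for CDC25B in A549 with indisulam, from -0.0118 to 0.1403 for CCNE1 in A549 additivity, from -0.0469 to 0.0208 for CCNE1 in SUM159 with palbociclib and from -0.0700 to 0.0956 for CDC25C in SUM159 for the combination against palbociclib. In SUM159 additivity they ran from -0.0989 to 0.0244 for CCNB1, from -0.0236 to 0.0591 for CCNB2, from -0.0791 to 0.0042 for CCNE1 and from -0.0037 to 0.1618 for CDC25C. In the line difference with palbociclib they ran from -0.0878 to 0.2362 for CCNE2 and from -0.0008 to 0.2776 for CDC25A, in that with indisulam from -0.0599 to 0.0412 for CDK2 and from -0.0965 to 0.0716 for CDC25A, and between untreated lines from -0.0898 to 0.0501 for CDK2.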

Other observations

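Of the 4 relatives listed as little expressed beside the 10 genes, CCNA1 and CDK3 did not pass the filter in either line. CCNB3, which encodes the third B cyclin, was called higher in untreated SUM159 than in untreated A549 in the fit of all libraries. In SUM159 it was not little expressed, although it lay outside the 10 genes. CCNB3 stood at 45.4 and 44.8 CPM in untreated SUM159, 14.6 and 13.7 CPM after palbociclib, 38.1 and 36.3 CPM after indisulam and 11.2 and 12.02 CPM after both, so that both palbociclib groups lay below the other 2. In A549 it was between 1.28 and 2.39 CPM in all 8 libraries. In SUM159 it fell with palbociclib, with a log2 change of -1.68 (SE 0.0644, adjusted p = 9.87e-13), with indisulam, with a log2 change of -0.28 (SE 0.05701, adjusted p = 0.000689), and with the combination, with a log2 change of -1.96 (SE 0.0669, adjusted p = 1.004e-13) in the edgeR quasi-likelihood test. No change passed in A549, and the difference between the lines was -1.39 (SE 0.253, adjusted p = 0.000496) with palbociclib and -1.42 (SE 0.287, adjusted p = 0.000492) with the combination, opposite in sign to that of the other B cyclins. SPDYA, which encodes a cyclin-independent activator of CDK1 and CDK2, was close to the floor of 3 counts in SUM159, at 0.241 and 0.144 CPM untreated and 0.413 and 0.5895 CPM after palbociclib, a change of 1.39 (SE 0.497, adjusted p = 0.0256), and did not pass with the combination (0.82 (SE 0.546, adjusted p = 0.199)).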
